A study of Mus musculus with 14 samples.

Results

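The Fc gamma receptors and the chain through which they signal were followed as 6 genes chosen by symbol: the activating receptors Fcgr1, Fcgr3 and Fcgr4, the inhibitory receptor Fcgr2b, the common gamma chain Fcer1g and the kinase Syk. All 6 were among the 13866 genes listed in the count table, and all 6 were among the 11852 genes with enough reads to be tested. RNA was taken from brain tissue of mice at 19 days of age and sequenced by bulk MARSseq, a method that reads the 3' ends of transcripts. WT mice were of the C57BL/6JOlaHsd strain, and MyTrMaSt null mice lack 4 adaptors of pathogen recognition receptors, MyD88, TRIF (gene Ticam1), MAVS and STING (gene Tmem173), in every cell, in the PBS-injected controls as well as in the treated mice. Mice were given daily intraperitoneal injections of PBS or of conduritol B-epoxide (CBE, 100 mg/kg body weight). CBE is an irreversible inhibitor of acid beta-glucosidase that is used to induce neuronopathic Gaucher disease. The groups were WT + PBS (n = 3), WT + CBE (n = 3), MyTrMaSt + PBS (n = 3) and MyTrMaSt + CBE (n = 5), with 1 library per mouse.

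Fc gamma receptors bind the constant part of IgG and so couple antibody-coated material to phagocytes, which in the brain parenchyma are the microglia. FCGR1, which binds monomeric IgG with high affinity, and FCGR3 and FCGR4, which bind immune complexes, have no signalling motif of their own and depend on the gamma chain FCER1G, whose ITAM is phosphorylated by Src family kinases and then recruits SYK. FCGR2B instead carries an inhibitory motif (ITIM) in its own tail, recruits the lipid phosphatase SHIP1 and dampens the signals of the activating receptors.

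Of these genes, 4 lie on mouse chromosome 1 (mm10). Fcgr2b is at chr1:170958617-170976547 (minus strand), Fcgr4 at chr1:171018920-171029761 (plus strand), Fcgr3 at chr1:171051174-171064935 (minus strand) and Fcer1g at chr1:171229572-171234365 (minus strand). Fcgr1 is at chr3:96282909-96293969 (minus strand) and Syk at chr13:52583173-52648792 (plus strand). Transcripts of Fcgr2b and Fcgr3 are close copies over part of their length: 166 windows of 50 bases were shared, 2.92% of those of Fcgr2b and 9.58% of those of Fcgr3. Within the last 500 bases of the transcripts, where MARSseq reads fall, 33 of 2424 Fcgr2b windows and 0 of 923 Fcgr3 windows were shared, and no other pair of the 6 genes shared a window. Exons of Fcgr2b overlap the antisense gene Gm38204 over 155 bases, and since the use of strand in counting is not given in the sources used here, reads from those bases cannot be told apart.

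Promoters of 3 receptor genes are shown because these receptors were called lower in one CBE-injected genotype than in the other. They are RefSeq sequences (GRCm38.p6, 250 bases before to 50 bases after the start of the transcript), and capitals mark the matches to 4 motifs searched on both strands: GAS (TTCNNNGAA), the core of the ISRE (GAAANNGAA), an ETS-IRF composite (GGAANNGAA) and the PU.1 box (GAGGAA). A match is a string of letters and not a measured binding site.
Fcgr1, chr3:96293920-96294219, - strand: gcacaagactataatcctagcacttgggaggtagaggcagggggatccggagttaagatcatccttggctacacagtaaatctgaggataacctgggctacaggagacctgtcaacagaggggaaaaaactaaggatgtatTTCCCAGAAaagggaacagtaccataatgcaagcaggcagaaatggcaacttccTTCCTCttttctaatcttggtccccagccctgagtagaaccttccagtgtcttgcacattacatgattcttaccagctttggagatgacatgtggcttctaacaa
Fcgr2b, chr1:170976022-170976321, - strand: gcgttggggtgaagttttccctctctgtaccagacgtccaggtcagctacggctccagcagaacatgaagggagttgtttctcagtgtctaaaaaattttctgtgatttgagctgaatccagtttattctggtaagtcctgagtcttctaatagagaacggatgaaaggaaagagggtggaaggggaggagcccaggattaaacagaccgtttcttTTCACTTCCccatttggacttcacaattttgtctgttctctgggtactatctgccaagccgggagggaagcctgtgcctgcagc
Fcgr4, chr1:171018676-171018975, + strand: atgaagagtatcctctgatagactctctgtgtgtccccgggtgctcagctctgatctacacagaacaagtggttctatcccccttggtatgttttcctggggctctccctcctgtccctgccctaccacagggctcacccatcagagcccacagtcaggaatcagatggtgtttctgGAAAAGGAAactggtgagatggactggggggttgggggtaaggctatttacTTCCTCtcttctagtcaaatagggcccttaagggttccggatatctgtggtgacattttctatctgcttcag
The Fcgr1 promoter held a GAS match at bases -109 to -101 from the start and a PU.1 box at -55 to -50. The Fcgr4 promoter held an ISRE core at -73 to -65 and a PU.1 box at -22 to -17, and the Fcgr2b promoter held an ETS-IRF match at -34 to -26. Of the other members, both Fcgr3 starts and 1 of the 2 Syk starts held a PU.1 box, and the Fcer1g promoter held none of the 4 motifs. Such strings were common: of 32851 mouse promoters of the same length, 8.30% held the GAS letters, 8.56% the ISRE core, 8.24% the ETS-IRF letters and 28.3% the PU.1 box.

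Libraries held 1290616 to 3704691 counts, so the rarest of these genes rest on very few reads. WT + PBS replicate 1, the smallest library, stood apart: its root mean square log2 distances to replicates 2 and 3 were 1.08 and 1.07, and these lay 0.395 from each other. Without this library all 6 members were still called in WT. Xist, which is transcribed in females, was at 0 counts in all WT + PBS libraries, at 1 to 47 in WT + CBE, at 32 to 46 in MyTrMaSt + PBS and at 0 to 39 in MyTrMaSt + CBE, so sex differed between groups. Of the targeted adaptor genes, Myd88 was lower in MyTrMaSt than in WT libraries without overlap in either treatment (3.11 to 4.49 against 9.95 to 17.1 CPM with PBS), Ticam1 and Mavs overlapped between genotypes, and Tmem173 was higher in MyTrMaSt + PBS (5.02 to 7.04 CPM) than in WT + PBS (0.902 to 2.49 CPM). Reads outside a deleted part do not check the deletion. All levels below are CPM, counts relative to library sizes scaled by edgeR's TMM method. Calls required an adjusted p below 0.05 (edgeR's quasi-likelihood test, Benjamini-Hochberg adjustment over all tested genes) and a change of 2-fold or more.

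WT + CBE brains held more of all 6 transcripts than WT + PBS brains, and all 6 passed the test, against 5.2% of all tested genes called higher in that comparison. No WT + CBE library overlapped a WT + PBS library for any of the 6, which held in the same direction for 15.1% of tested genes. The inhibitory receptor Fcgr2b had the highest fold change of the 6, at 34.8-fold, and Fcgr1 and Syk had the lowest, at 4.48-fold and 4.45-fold. In whole-brain RNA, more cells that express a gene and more RNA per cell cannot be told apart.

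In MyTrMaSt mice, CBE also raised 5 of the 6 genes past the cutoffs, against 3.23% of all tested genes called higher, and the exception was Fcgr1. All 6 were higher in each of the 5 CBE libraries than in each of the 3 PBS libraries, a pattern shared by 11.8% of tested genes. When the CBE-injected groups were compared directly, 4 of the 6 genes were called lower in MyTrMaSt + CBE than in WT + CBE, against 1.93% of tested genes, and 5 of the 6 were lower in every MyTrMaSt + CBE library than in every WT + CBE library, against 6.02% of tested genes. The same genotype comparison in PBS-injected mice called none of the 6, against 0.16% of tested genes called in either direction by edgeR. At an unadjusted p below 0.05 the number was also 0, and so were the numbers called by DESeq2 and limma voom.

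**Figure D1:**
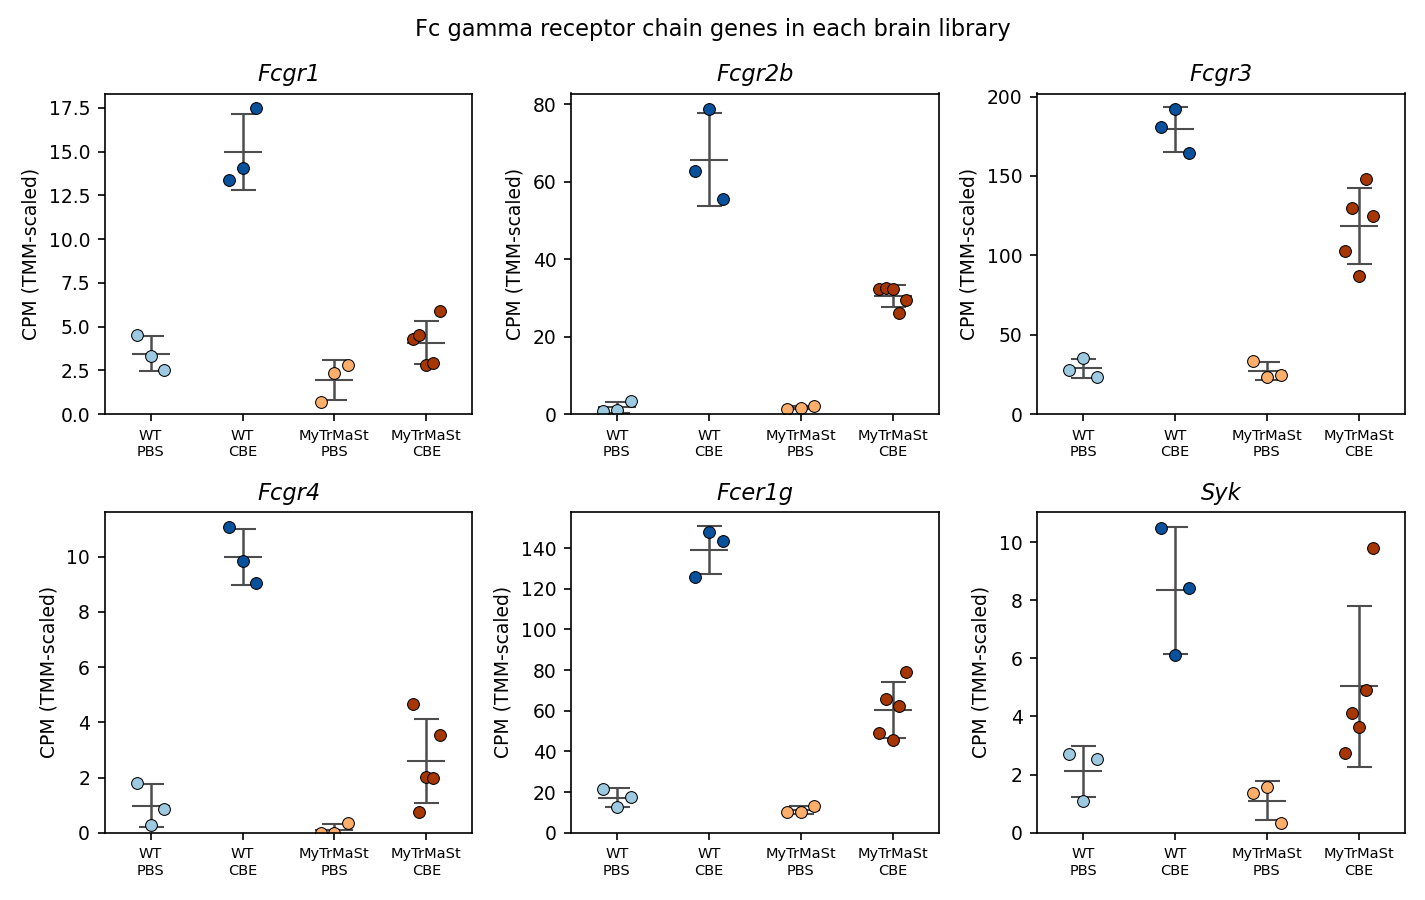
Level of each of the 6 genes in every library (points, CPM on TMM-scaled library sizes, linear axes from 0) with the mean and SD of each group (horizontal bars and whiskers; n = 3, 3, 3 and 5). Points of WT + CBE lie above those of WT + PBS in each panel, and points of MyTrMaSt + CBE lie below those of WT + CBE in each panel except that of Syk.

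Fcgr1, the high-affinity receptor, was counted 5, 12 and 6 times in the WT + PBS libraries, and the WT + CBE libraries held 46, 30 and 29 reads. In MyTrMaSt + PBS it was counted 2, 9 and 8 times, and in MyTrMaSt + CBE 11, 12, 7, 6 and 15 times. The lowest WT + CBE level, 13.4 CPM, was well above the highest MyTrMaSt + CBE level, 5.87 CPM, and the range of MyTrMaSt + CBE (2.84 to 5.87 CPM) overlapped that of WT + PBS (2.53 to 4.51 CPM). In WT, Fcgr1 rose by 2.16 on the log2 scale (SE 0.380, adjusted p = 0.000466). The corresponding MyTrMaSt value was 1.04 (SE 0.407, adjusted p = 0.113), with a 95% interval of 0.18 to 1.90, and it was not called. Between the CBE groups it was 3.55-fold lower in MyTrMaSt mice (log2 fold change -1.83, SE 0.301, adjusted p = 0.000720). Although Fcgr1 passed the test in WT and not in MyTrMaSt mice, the difference between these changes, tested as an interaction, was -1.12 with a 95% interval of -2.30 to 0.05 (adjusted p = 0.418).

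Fcgr3, a receptor for immune complexes and the most counted of the 4 receptors in every library, had 31, 128 and 56 counts in the PBS libraries of WT mice, and 622, 410 and 273 in their CBE libraries. It had 98, 88 and 70 counts in MyTrMaSt + PBS and 263, 345, 215, 301 and 319 in MyTrMaSt + CBE. Its mean level rose from 29.0 ± 5.94 CPM (SD, n = 3) to 179 ± 14.04 CPM (n = 3) in WT, and from 27.2 ± 5.75 CPM (n = 3) to 118 ± 23.9 CPM (n = 5) in MyTrMaSt mice. These are changes of 6.10-fold (log2 2.61, SE 0.216, adjusted p = 1.79e-07) and 4.35-fold (log2 2.12, SE 0.191, adjusted p = 2.06e-06). Each MyTrMaSt + CBE library was below each WT + CBE library, the highest at 148 CPM and the lowest of WT + CBE at 164 CPM. This difference between genotypes, -0.60 on the log2 scale, did not pass the test (SE 0.177, adjusted p = 0.101).

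Fcgr4, a receptor with preference for IgG2 immune complexes, was close to the limit of counting without CBE, with 2, 1 and 2 counts in WT + PBS and 0, 0 and 1 in MyTrMaSt + PBS. It had 38, 21 and 15 counts in WT + CBE and 12, 2, 5, 4 and 9 in MyTrMaSt + CBE. All CBE libraries were therefore above all PBS libraries of their genotype, and the highest MyTrMaSt + CBE level (4.68 CPM) was below the lowest WT + CBE level (9.04 CPM). With so few reads the ratio of summed counts per depth is given with its exact 95% counting interval, which covers counting error only: 14.5 (5.95 to 46.1) in WT and 24.8 (4.14 to 1010) in MyTrMaSt mice. Both changes passed edgeR's test (adjusted p = 0.000276 and 0.00621). The MyTrMaSt call was lost with counts thinned to the smallest library (log2 2.78, adjusted p = 0.161) and in a test against a 2-fold change (adjusted p = 0.0575). The MyTrMaSt value rests on the single read of MyTrMaSt + PBS replicate 3, and the fitted log2 fold change went from 4.11 to 5.77 without that library. In WT, leaving out WT + PBS replicate 2 lowered the fitted log2 fold change from 3.72 to 3.08. Fcgr4 was 3.83-fold lower in MyTrMaSt + CBE than in WT + CBE (log2 -1.94, SE 0.408, adjusted p = 0.00645), a call that was lost without WT + CBE replicate 1 (-1.85, adjusted p = 0.0696) and with thinned counts (-1.82, adjusted p = 0.129).

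Fcgr2b, the inhibitory receptor, had 1, 4 and 8 counts in WT + PBS, rising to 216, 168 and 92 in WT + CBE. It had 4, 6 and 6 counts in MyTrMaSt + PBS and 83, 87, 80, 53 and 75 in MyTrMaSt + CBE. In both genotypes the lowest CBE library was more than an order of magnitude above the highest PBS library: 55.4 against 3.37 CPM in WT and 26.1 against 2.11 CPM in MyTrMaSt mice. The log2 fold change was 5.12 in WT (SE 0.394, adjusted p = 4.05e-09), and it was 5.91 without WT + PBS replicate 3, the control library with the highest count. For MyTrMaSt mice it was 4.15 (SE 0.354, adjusted p = 5.15e-08), which is 17.7-fold. Levels in MyTrMaSt + CBE (30.6 ± 2.85 CPM, n = 5) were 2.15-fold lower than in WT + CBE (65.7 ± 11.97 CPM, n = 3). On the log2 scale this difference was -1.10 (SE 0.184, adjusted p = 0.000934). Without WT + CBE replicate 2 this difference fell just under the 2-fold cutoff (-0.96, adjusted p = 0.0161).

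Fcer1g, the gamma chain that the activating receptors need for surface expression and signalling, had 24, 45 and 42 counts in WT + PBS, compared with 432, 315 and 238 in WT + CBE. In MyTrMaSt + PBS it had 30, 38 and 38 counts, and in MyTrMaSt + CBE 126, 175, 112, 127 and 202. The CBE groups overlapped neither each other nor the PBS groups: WT + CBE ran from 126 to 148 CPM, MyTrMaSt + CBE from 45.4 to 79.1 CPM, and the highest PBS library was at 21.7 CPM, while the PBS groups overlapped. The gamma chain rose 8.42-fold in WT (log2 3.07, SE 0.236, adjusted p = 6.87e-08) and 5.37-fold in MyTrMaSt mice (log2 2.42, SE 0.221, adjusted p = 1.60e-06). It was 2.30-fold lower in MyTrMaSt + CBE than in WT + CBE (log2 -1.20, SE 0.184, adjusted p = 0.000377).

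Syk, the kinase that docks on the phosphorylated gamma chain, had only 3, 4 and 6 counts in WT + PBS, compared with 36, 13 and 14 in WT + CBE. It had 4, 6 and 1 counts in MyTrMaSt + PBS and 7, 11, 9, 10 and 25 in MyTrMaSt + CBE. MyTrMaSt + CBE replicate 5 was highest of its group at 9.79 CPM, inside the range of WT + CBE (6.10 to 10.47 CPM), so the CBE groups overlapped. Syk rose 4.45-fold in WT (log2 2.15, SE 0.563, adjusted p = 0.0116) and 4.26-fold in MyTrMaSt mice (log2 2.09, SE 0.579, adjusted p = 0.0171). Both calls depend on single libraries. The WT call was lost without WT + PBS replicate 2 (log2 1.71, adjusted p = 0.0699) or WT + CBE replicate 1 (log2 1.92, adjusted p = 0.0718). The MyTrMaSt call was lost without MyTrMaSt + PBS replicate 1 (log2 2.23, adjusted p = 0.05002) or 3 (log2 1.73, adjusted p = 0.107). With the Xist level as a covariate the WT value was 1.98 (adjusted p = 0.121). No difference in Syk between the CBE groups was detectable at this depth (log2 -0.75, 95% interval -1.55 to 0.05, adjusted p = 0.669).

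**Figure D2:**
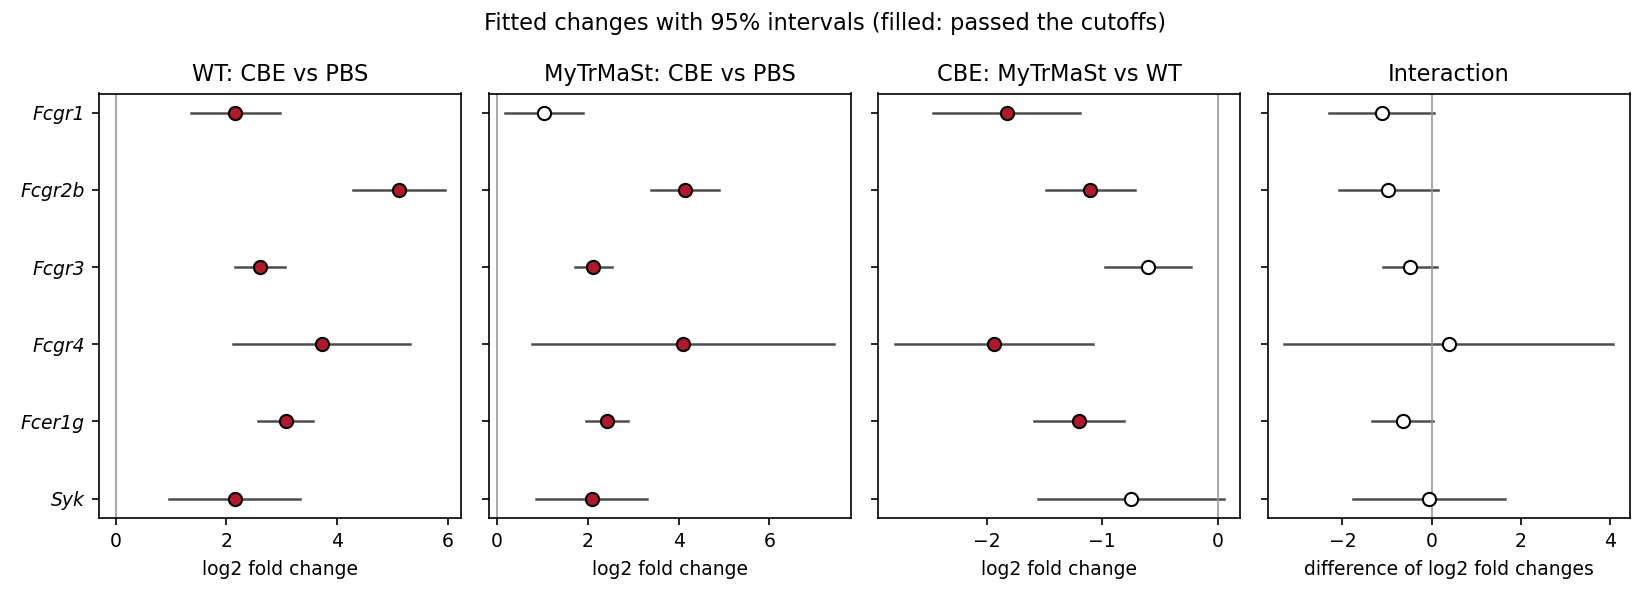
Fitted log2 fold changes (points) with 95% intervals (lines) from the edgeR model for the 6 genes, in WT, in MyTrMaSt mice, between the CBE groups, and for the interaction (change in MyTrMaSt minus change in WT); filled points passed the cutoffs. Fcgr2b lies farthest right in WT at 5.12, Fcgr4 has the widest intervals, and the interaction intervals of all 6 genes include 0.

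Whether CBE acted differently on these genes in the 2 genotypes was asked directly with the genotype by CBE interaction. None of the 6 passed in edgeR, against 0.489% of tested genes with an adjusted p below 0.05. None had an unadjusted p below 0.05, and none was called by DESeq2 or limma voom. Estimates were -1.12 for Fcgr1, -0.97 for Fcgr2b, -0.49 for Fcgr3, 0.39 for Fcgr4, -0.65 for Fcer1g and -0.06 for Syk on the log2 scale. The intervals were wide, from -2.09 to 0.14 for Fcgr2b, from -3.30 to 4.08 for Fcgr4 and from -1.76 to 1.64 for Syk. Sizeable differences in either direction are thus not resolved for Fcgr4 and Syk. In the PBS groups the log2 fold changes of MyTrMaSt over WT ran from -2.32 for Fcgr4 to -0.11 for Fcgr3. The signs of Fcgr2b and Fcgr3 turned under some alternatives, and the Fcgr4 value, resting on 0, 0 and 1 counts in MyTrMaSt + PBS, went from -3.98 without MyTrMaSt + PBS replicate 3 to -1.35 with thinned counts. Fcer1g was nearest to the threshold there (-0.55, 95% interval -1.11 to 0.01, adjusted p = 0.306).

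The inhibitory receptor took a larger part of the receptor reads after CBE, which is described here without a test. Since MARSseq counts 3' ends, reads were not divided by transcript length, and shares of different genes are read only between libraries. Fcgr2b made up 2.56%, 2.76% and 11.1% of the reads of the 4 receptors in the WT + PBS libraries and 23.4%, 26.7% and 22.5% in WT + CBE. In MyTrMaSt mice the share went from 3.85%, 5.83% and 7.06% with PBS to 22.5%, 19.5%, 26.1%, 14.6% and 17.9% with CBE. The CBE libraries thus lay above the PBS libraries of their genotype in every case, while the CBE groups of the 2 genotypes overlapped. Exact 95% binomial intervals of the single shares cover counting error only. They ran from 0.0649% to 13.5% in WT + PBS replicate 1 (39 receptor reads) and from 20.7% to 26.3% in WT + CBE replicate 1 (922). The intervals of the closest libraries overlapped. In replicate 3 of WT they were 4.92% to 20.7% with PBS and 18.5% to 26.9% with CBE. They were 2.63% to 14.7% in MyTrMaSt + PBS replicate 3 and 11.1% to 18.6% in MyTrMaSt + CBE replicate 4.

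Expressed as a ratio, the summed activating receptors exceeded Fcgr2b by 38-, 35.3- and 8-fold in WT + PBS, and only by 3.27-, 2.74- and 3.45-fold in WT + CBE. In MyTrMaSt mice the ratio was 25, 16.2 and 13.2 with PBS and 3.45, 4.13, 2.84, 5.87 and 4.57 with CBE. The summed activating receptors themselves were higher with CBE in both genotypes, at 191 to 216 CPM in WT + CBE (27.0 to 39.0 CPM with PBS) and at 92.0 to 153 CPM in MyTrMaSt + CBE (25.6 to 34.5 CPM with PBS). Fcgr1 contributed 4.77% to 7.09% of receptor reads in WT + CBE, compared with 1.65% to 3.59% in MyTrMaSt + CBE, without overlap. Fcgr3 contributed 65.2% to 67.5% and 70.0% to 82.7% in the same groups, also without overlap. These shares are descriptions, since a lower share of some receptors forces a higher share of others.

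**Figure D3:**
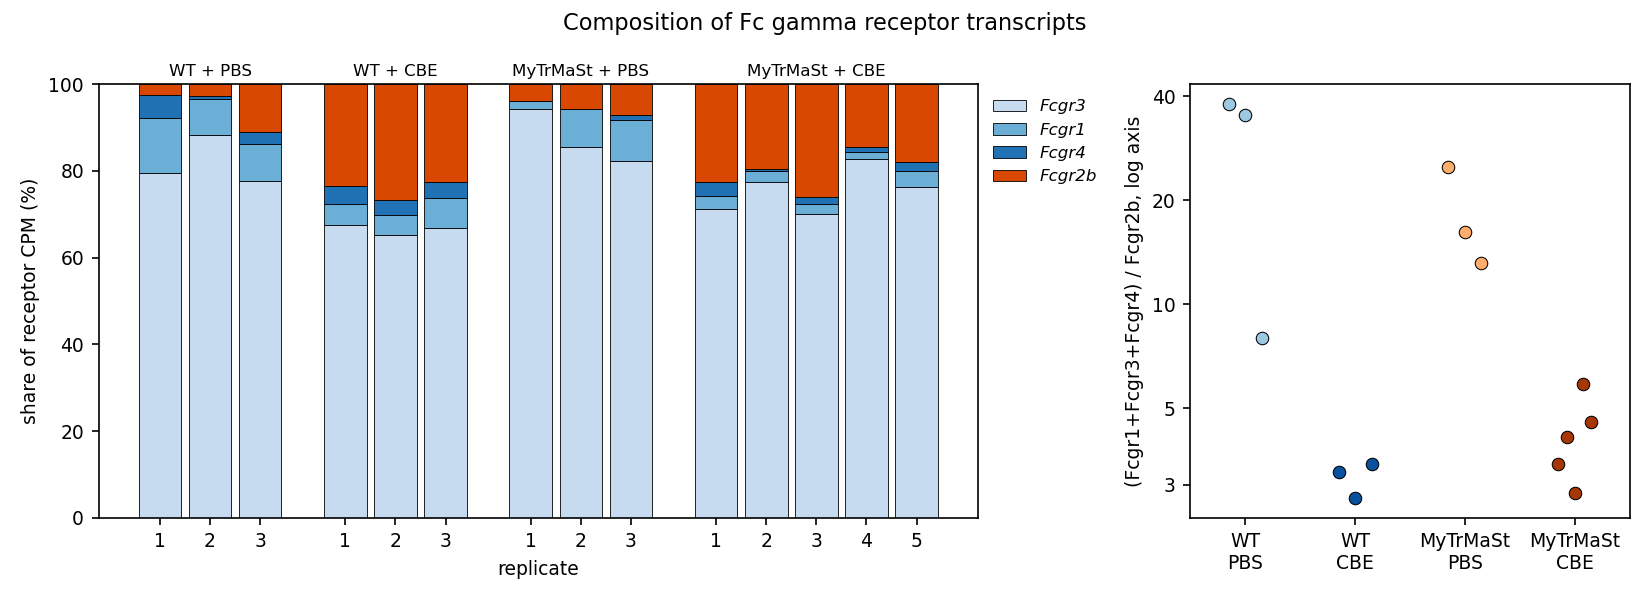
Left, share of each receptor in the summed CPM of Fcgr1, Fcgr2b, Fcgr3 and Fcgr4 in each library (stacked bars, percent); right, summed activating receptors over Fcgr2b in each library (points, log axis). Fcgr2b takes 14.6% to 26.7% of the bars with CBE and at most 11.1% with PBS, and the ratio is at most 5.87 with CBE and at least 8 with PBS.

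Markers of the cells that carry these receptors moved with them. Of 18 microglial markers tested, 12 were called higher with CBE in WT (median log2 fold change 1.81) and 10 in MyTrMaSt mice (median 1.17). Over all tested genes the medians were -0.02 and 0.01, and 5.2% and 3.23% were called higher. Cd68, a lysosomal glycoprotein of phagocytes, rose by 3.79 and 3.02 on the log2 scale. Among markers of resting microglia, the fractalkine receptor Cx3cr1 rose by 1.85 and 1.08, Olfml3 by 1.01 and 1.53, and the purinergic receptor P2ry13 by 1.10 in WT (0.47 and not called in MyTrMaSt mice), while Tmem119 (0.78 and 0.28), Sall1 (0.85 and 0.28) and P2ry12 (0.05 and -0.49) were called in neither genotype. The summed level of the 18 markers ran from 786 to 1058 CPM with PBS and from 3884 to 4441 CPM with CBE in WT, and from 696 to 751 CPM and 2271 to 2549 CPM in MyTrMaSt mice. The part of microglial number in the changes of the receptors was not tested.

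Set against that sum, Fcgr2b and Fcer1g were higher with CBE in both genotypes. Fcgr2b had 0.853 to 3.93 CPM per 1000 CPM of the markers in WT + PBS, compared with 13.1 to 20.3 in WT + CBE. In the MyTrMaSt groups it had 1.84 to 3.04 with PBS and 10.7 to 14.3 with CBE. Fcer1g was at 15.8 to 20.6 and 28.3 to 38.1 in WT and at 13.8 to 19.2 and 19.99 to 31.0 in MyTrMaSt mice. Fcgr1, Fcgr3 and Syk overlapped between PBS and CBE in both genotypes, and Fcgr4 in MyTrMaSt mice. For Fcgr1 the values were 2.94 to 4.27 in WT + PBS, 3.01 to 4.14 in WT + CBE, 0.920 to 4.05 in MyTrMaSt + PBS and 1.21 to 2.30 in MyTrMaSt + CBE. The marker sum rests in large part on the 3 C1q genes, which made up 43.5% to 59.2% of it in WT + PBS, 63.9% to 65.0% in WT + CBE, 35.6% to 38.7% in MyTrMaSt + PBS and 51.2% to 57.7% in MyTrMaSt + CBE. Against the other 15 markers, a sum chosen after the data were seen, Fcgr1 and Syk still overlapped in both genotypes, whereas Fcgr3 no longer did, at 49.1 to 79.7 with PBS and 110 to 141 with CBE in WT, and at 50.2 to 73.5 and 78.6 to 143 in MyTrMaSt mice. Which genes overlap thus depends on the markers summed, and these values do not count cells.

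Markers of other cells that carry Fc receptors were few. Of 14 markers of infiltrating myeloid cells and of border macrophages, 8 were listed and 5 tested (Mrc1, Lyve1, F13a1, Pf4 and Ms4a7). Ccr2, Ly6c2, Plac8, S100a8 and Ly6g were not listed, and Chil3 and S100a9 had too few reads to be tested. The tested genes are also expressed by resident border macrophages, so they do not measure infiltration. Ms4a7, a gene of border and infiltrating macrophages, had 0 to 3 counts in WT + PBS, 41 to 83 in WT + CBE, 3 to 6 in MyTrMaSt + PBS and 4 to 8 in MyTrMaSt + CBE, and its interaction passed the test (-4.63, adjusted p = 0.0111). F13a1 (log2 2.14) and Lyve1 (1.81) were also called in WT, and edgeR called none of the 5 in MyTrMaSt mice (0 with an unadjusted p below 0.05). The summed level of the 8 listed genes was 11.8 to 17.1 CPM with PBS and 46.4 to 60.1 CPM with CBE in WT, and 17.2 to 18.3 CPM and 16.9 to 33.0 CPM in MyTrMaSt mice, and the part of such cells in the receptor changes was not tested. Of 10 B and plasma cell markers 3 were listed, and Ms4a1 was not. Cd22, a sialic acid receptor of B cells that microglia can also express, had 0 counts in all PBS libraries, while WT + CBE libraries held 16 to 19 and MyTrMaSt + CBE libraries 1 to 5. Neither of the 2 tested natural killer and T cell markers was called by edgeR in either genotype (0 with an unadjusted p below 0.05), and Ncr1 was not listed.

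Transcripts of ligands of the receptors were almost absent from the table. Of 15 immunoglobulin and pentraxin genes looked for, only Ptx3 was listed, and none of the immunoglobulin chain genes looked for was. Brain RNA does not show whether IgG protein was present in the tissue, which was not measured. Ptx3, a pentraxin that can bind Fc gamma receptors, had 1 to 2 counts in WT + PBS, 124 to 246 in WT + CBE, 2 to 6 in MyTrMaSt + PBS and 9 to 51 in MyTrMaSt + CBE. It was called higher with CBE in both genotypes (adjusted p = 4.06e-06 and 0.0167) and lower in MyTrMaSt + CBE than in WT + CBE (adjusted p = 6.17e-05). Among other receptors of the Fc family, Fcrls, a microglial Fc receptor-like gene, rose by 1.93 in WT and 1.69 in MyTrMaSt mice on the log2 scale. Trim21, a cytosolic antibody receptor, rose by 2.26 in WT (adjusted p = 0.00146) and had a log2 fold change of -0.11 in MyTrMaSt mice. Fcgrt, the neonatal Fc receptor, which recycles IgG, was not called in either (-0.11 and -0.01).

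Of 6 other tested receptors and adaptors that signal through ITAMs or pair with those that do, 5 were called higher in WT (median log2 2.60) and 4 in MyTrMaSt mice (median 2.26), where 5.2% and 3.23% of all tested genes were called higher. Siglech, a microglial lectin, was called in neither (-0.14 and -0.16), and Pirb was called in WT but had an adjusted p of 0.241 in MyTrMaSt mice in edgeR's test. Tyrobp, the DAP12 adaptor that also recruits SYK, changed by 2.72 in both genotypes on the log2 scale. Its partner Trem2 rose by 2.60 in WT and 3.15 in MyTrMaSt mice, from a lower level in MyTrMaSt + PBS than in WT + PBS (-1.29, adjusted p = 0.0114), and its difference between the CBE groups was -0.74 (adjusted p = 0.0102), under the 2-fold cutoff. The interaction of Trem2 did not pass (0.56, adjusted p = 0.395). Clec7a, a receptor of fungal glucans, rose by 5.32 and 4.58. Of these, Clec7a was called lower in MyTrMaSt + CBE than in WT + CBE (-2.35, adjusted p = 0.00158), as was Pirb (-2.09, adjusted p = 0.0408), an inhibitory receptor placed in the list with its paired activating relatives.

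Upstream of the ITAM, 3 of 7 tested Src family kinases and their phosphatase were called higher in WT and 1 in MyTrMaSt mice. Over all tested genes the shares called higher were 5.2% and 3.23%. Ptprc, which encodes CD45, rose by 3.600 and 1.28 on the log2 scale. The kinase Lyn rose in WT by 1.40, and its log2 fold change of 0.80 in MyTrMaSt mice (adjusted p = 0.023) was under the 2-fold cutoff. Ptprc and Lyn were both called lower in MyTrMaSt + CBE than in WT + CBE, at -1.34 and -1.07.

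Downstream of SYK, 5 of 16 tested adaptors and enzymes were called higher in WT (median log2 0.69) and 3 in MyTrMaSt mice (median 0.51). Over all tested genes the shares called higher were 5.2% and 3.23%. Lat2, a membrane scaffold of myeloid cells, rose by 2.73 and 2.29, and Blnk, an adaptor that SYK phosphorylates, by 2.15 and 1.72. The scaffold Sh3bp2 rose by 2.65 in WT and had a log2 fold change of 0.84 in MyTrMaSt mice (adjusted p = 0.103). None of the 16 was called between the CBE groups, where 1.93% of tested genes were called lower. For the 16, edgeR gave 4 with an unadjusted p below 0.05.

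Genes of inhibitory signalling were raised in part. Their list holds SHIP1, which FCGR2B recruits, and also ITIM receptors separate from FCGR2B (Lilrb4a, Lair1 and Sirpa). It is therefore no measure of signalling by FCGR2B. Of 12 tested phosphatases, adaptors and ITIM receptors, 5 were called higher in WT (median log2 0.99) and 3 in MyTrMaSt mice (median 0.58). The shares of all tested genes called higher were 5.2% and 3.23%. Inpp5d, which encodes SHIP1, rose by 1.85 in WT, and its log2 fold change of 0.98 in MyTrMaSt mice (adjusted p = 0.0046) was just under the 2-fold cutoff. Ptpn6, which encodes SHP1, rose by 2.94 and 2.73. The ITIM receptor Lilrb4a had 1 to 3 counts in WT + PBS, 146 to 343 in WT + CBE, 2 to 5 in MyTrMaSt + PBS and 65 to 116 in MyTrMaSt + CBE.

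The machinery of phagocytosis and the oxidative burst, which Fc receptors trigger, was also measured. All 5 tested subunits of the phagocyte NADPH oxidase were called higher in both genotypes, against 5.2% (WT) and 3.23% (MyTrMaSt) of all tested genes. The median log2 values of the 5 subunits were 2.58 (WT) and 1.72 (MyTrMaSt). Cybb, the catalytic subunit, rose by 5.20 and 2.07 and was lower in MyTrMaSt + CBE than in WT + CBE by -2.89 (adjusted p = 1.66e-06). Its partner Cyba rose by 3.03 and 2.69. Of 16 actin regulators of phagocytosis, 7 were called higher in WT and 4 in MyTrMaSt mice, among them Hcls1 (2.43 and 2.19) and Nckap1l (1.84 and 1.61), which link receptors to actin assembly in blood-derived lineages.

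**Figure D4:**
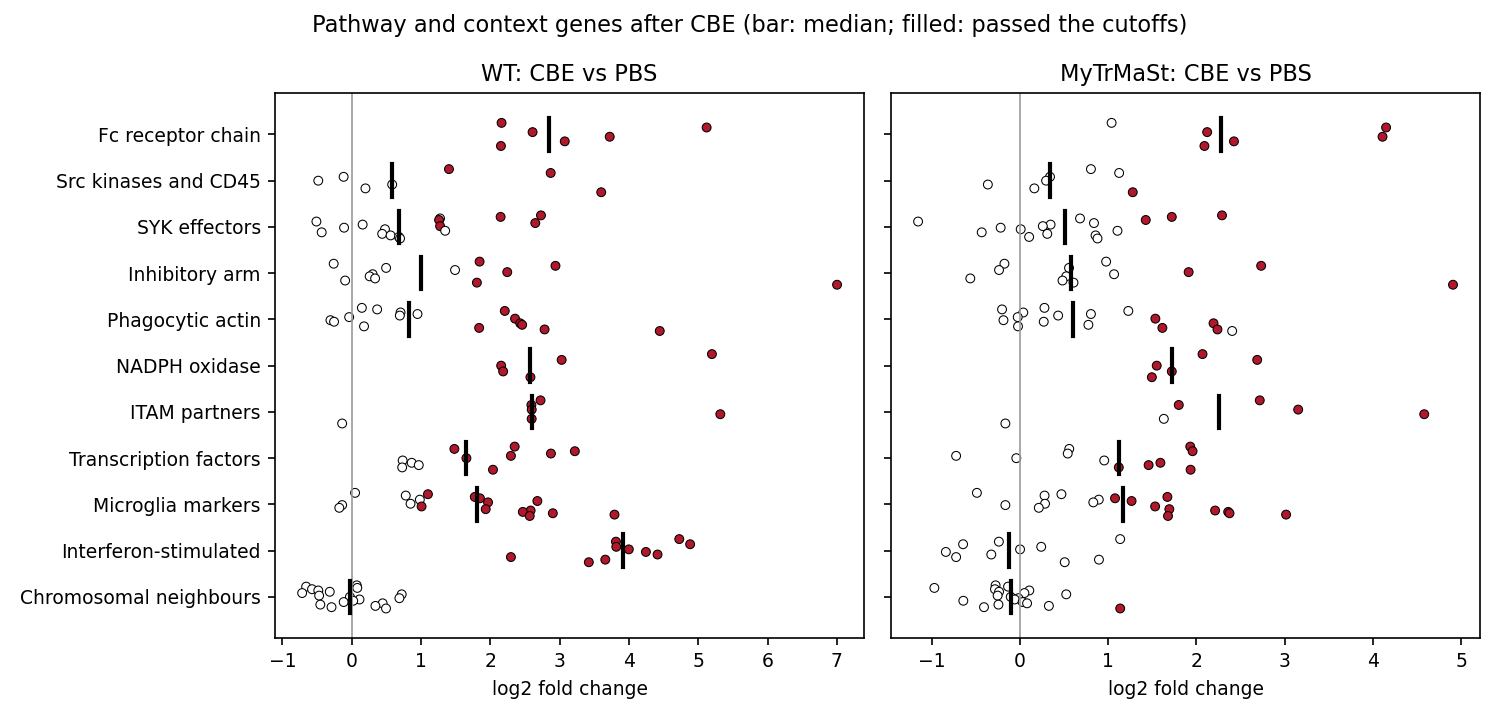
Log2 fold change of every tested gene of each list (points) with CBE in WT (left) and in MyTrMaSt mice (right), with the list median (black bar); filled points passed the cutoffs. Medians of the 6 receptor chain genes are 2.84 and 2.27, those of the interferon-stimulated genes 3.91 and -0.12, and those of the chromosomal neighbours -0.03 and -0.10.

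Transcription factors of myeloid cells and of the interferon response were described beside the receptors, since the MyTrMaSt mice lack adaptors that lead to interferon. Of 11 tested, 7 were called higher in WT and 6 in MyTrMaSt mice, against 5.2% and 3.23% of all tested genes. Against 0.489% of all tested genes, 3 of the 11 passed the interaction test. Among these, Stat2 (-1.70, adjusted p = 0.00521) and Irf9 (-2.33, adjusted p = 0.0031) encode transcription factors of the type 1 interferon response. Spi1, which encodes PU.1, rose by 2.35 in WT and 1.93 in MyTrMaSt mice, Irf8 by 3.22 and 1.96, and Runx1 by 2.04 and 1.93. In a list of 10 interferon-stimulated genes, all 10 were called higher in WT (median log2 3.91) and none in MyTrMaSt mice (median -0.12), where edgeR gave 2 with an unadjusted p below 0.05, and 9 passed the interaction test. The fitted log2 fold changes of the 6 receptor chain genes in MyTrMaSt mice ran from 1.04 to 4.15.

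Genes that lie beside the members on chromosomes 1, 3 and 13 were mostly not called. Of 19 neighbours tested, 0 were called in WT by edgeR (5 with an unadjusted p below 0.05), and 1 in MyTrMaSt mice. That gene, Gadd45g, a stress-induced gene 735 kb from Syk, rose by 1.14 (adjusted p = 0.00544). The 19 neighbours gave medians of -0.03 (WT) and -0.10 (MyTrMaSt) on the log2 scale.

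Across all 14 libraries the members tracked each other to different degrees. Pearson's r on log2 CPM was 0.957 for Fcgr2b and Fcgr3, 0.954 for Fcgr3 and Fcer1g, and 0.952 for Fcgr2b and Fcer1g, against 0.704 for Fcgr1 and Fcgr3 and 0.707 for Fcgr1 and Fcgr2b. Among 11213 genes with a mean of at least 10 counts, those most like Fcgr1 included Bst2 (0.938) and H2-T23 (0.934). Those most like Fcgr2b were Slc15a3 (0.988), Cd68 (0.988) and Lilr4b (0.986), and those most like Fcgr3 were Cnn3 (0.988), Lilrb4a (0.982) and Capg (0.981). For Fcer1g they were the complement genes C1qc (0.987) and C1qa (0.985) and Irf5 (0.984). For Fcgr4 they were Susd6 (0.972), Gna15 (0.962) and Il18bp (0.945), and for Syk Abhd4 (0.938), Tnfaip8l2 (0.927) and Ramp2 (0.927). These coefficients describe 14 libraries that fall into treated and control groups, and share those groups, so no test was made on them.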

How the data were processed

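The authors made bulk MARSseq libraries, mapped reads to mm10 with hisat and kept uniquely mapping reads; cutadapt and HTSeq are named in the submitters' processing notes. The deposited values used here are whole-number counts of reads per gene, and whether strand or molecular identifiers were used is not given in the sources used here. A normalized table and a table of the authors' own comparisons (mean, fold change, p-value, direction) were deposited too and were not used. Counts were tested in R 4.3.3 with edgeR 4.0.16: filterByExpr on the 4 groups, TMM scaling, and 1 quasi-likelihood model with 4 group means over all 14 libraries, with Benjamini-Hochberg adjustment over 11852 genes. Calls needed at least 2-fold and an adjusted p below 0.05, and the interaction the latter only. CPM used TMM-scaled sizes, and likeness used log2 CPM with a prior count of 2. The procedure was tested on simulated data. Alternatives were RLE factors, library totals, DESeq2 1.42.0, limma 3.58.1 voom, other filters, fewer groups, a replicate block, an Xist covariate, thinned counts, a test against 2-fold, and the omission of single libraries.

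Members and gene lists were chosen with earlier results of these data known. Of each list up to 4 called genes of lowest adjusted p in WT (in MyTrMaSt mice where none was called in WT) and those called in the interaction were named. Genes named beyond that rule, such as P2ry12, Cx3cr1, Fcgrt, Siglech, Pirb, Spi1, Runx1 and Ccr2, were chosen after their values were seen or as defining markers. Nothing in the labels says more than that each library is a separate mouse, so p-values measure the spread between these samples. The labels do not say whether replicate numbers pair the samples, and the main model did not pair them. Some genes that the rule names are not reported here.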

Additional observations from a re-analysis of the deposited data

How the results depend on the processing

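In WT, 5 or 6 of the 6 receptor chain genes were called under each of the 25 alternatives. In MyTrMaSt mice the number fell from 5 to 3 with counts thinned to the smallest library, where 5 of the 6 could be tested and Fcgr4 was not called, and to 3 when the test was made against a 2-fold change, without Fcgr4 and Syk. Between the CBE groups the number fell from 4 to 0 in the test against a 2-fold change (Fcgr1 -1.83, adjusted p = 0.117; Fcgr4 -1.94, adjusted p = 0.277; Fcgr2b -1.10 and Fcer1g -1.20, adjusted p = 1.0 for both), and to 3 with thinned counts, without Fcgr4 (-1.82, adjusted p = 0.129). Leaving out a library gave 5 to 6 calls in WT, 4 to 5 in MyTrMaSt mice and 3 to 4 between the CBE groups. Same-numbered libraries gave no clear sign of pairing (correlations from -0.125 to 0.178), which cannot exclude a shared litter or batch. A replicate block gave 6, 4 and 4 calls in these comparisons, losing Syk in MyTrMaSt mice (1.57, adjusted p = 0.151), and left both other comparisons at 0.

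Directions turned only in comparisons where no member was called, and the cause was not tested. Between the PBS groups, Fcgr2b was at 0.0049 with limma voom, 0.50 with thinned counts and -0.58 to 0.65 when a library was left out (0.65 without WT + PBS replicate 3), and Fcgr3 at 0.22 with the Xist covariate, 0.0045 with thinned counts and -0.30 to 0.094 when a library was left out (0.094 without WT + PBS replicate 2). In the interaction, Fcgr4 was at -0.25 with voom, -0.47 with thinned counts and -0.16 to 2.04 when a library was left out (-0.084 without WT + PBS replicate 1, -0.16 without MyTrMaSt + PBS replicate 2). Syk was at 0.0031 with DESeq2, 0.16 with the Xist covariate and -0.47 to 0.39 when a library was left out, above 0 for 7 of the 14. Fcgr4 and Syk had at most 6 counts in any PBS library.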

Other observations

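Marker genes of the other brain cells were measured in the same libraries. All 5 astrocyte markers had log2 fold changes above 0 with CBE in both genotypes (medians 0.73 in WT and 0.78 in MyTrMaSt mice), 5 and 4 of them with an unadjusted p below 0.05, and 2 and 1 were called. Gfap, an intermediate filament of reactive astrocytes, rose by 3.31 on the log2 scale with CBE in both genotypes, and Aqp4, a water channel, rose by 1.81 in WT and was not called in MyTrMaSt mice (0.78, adjusted p = 0.0561). All 6 oligodendrocyte markers had log2 fold changes below 0 in WT (median -0.83, from -1.02 to -0.41), each with an unadjusted p below 0.05 in edgeR's test, and Cldn11, a myelin tight junction gene, was the 1 past the 2-fold cutoff (-1.02, adjusted p = 0.00122). In MyTrMaSt mice the median was -0.28 (from -0.45 to 0.05), 2 of the 6 had an unadjusted p below 0.05 and none was called. None of the 6 neuronal markers was called by edgeR in WT or MyTrMaSt mice (2 and 1 with an unadjusted p below 0.05), and none of the 4 tested endothelial markers (0 and 2). Their part in the levels of the Fc receptor genes was not tested.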
